A study of Mus musculus with 9 samples.

Results

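H3K27ac and H3K18ac, acetylations of lysine 27 and lysine 18 of histone H3, were compared by their peaks and reads in endothelial cells from the lungs of wild-type mice. The members are all peaks of both marks: 114890 H3K27ac peaks and 171339 H3K18ac peaks, together 286229 of the 1309635 regions in the deposited table. A peak with at least 1 base in common with a peak of the other mark is called shared here, and a peak with none is called a one-mark peak. The profiles were made by ACT-seq, in which an antibody leads a Protein A/G-Tn5 transposase to chromatin that carries its mark, and the enzyme cuts and tags the DNA there. All 9 libraries came from isolated lung endothelial cells of WT mice with no treatment named in the labels: 1 library for each of 8 histone marks and 1 for IgG, an antibody with no histone target. The labels give no age, strain or sex of the mice and do not say how many animals were pooled. With 1 library per mark there is no replicate error and no test between the marks, and each interval given below is a 95% interval for counting error alone.

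Acetylation removes the positive charge of the lysine and makes a docking site for bromodomain proteins. H3K27ac and H3K18ac are both written mainly by the paralogous acetyltransferases CBP and p300, which transcription factors recruit to enhancers and promoters. H3K27ac is widely used to mark active enhancers and active promoters, and lysine 27 is also the residue that Polycomb complexes methylate at silent genes. H3K18ac is found at the same kinds of element. Acetylated residues are cleared by histone deacetylases.

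The promoters of genes in the different classes differed in sequence, so 1 or 2 examples of each class are printed first. A gene start was placed in a class by the peaks within 2 kb of it: both marks, H3K27ac alone, H3K18ac alone or neither. The sequences are from RefSeq (GRCm38.p6), run 5′ to 3′ on the strand of the gene from 250 bases before to 50 bases after an annotated start, and show CG dinucleotides in capitals. Kdr, the main VEGF receptor of endothelium (chr5:75978406-75978705, minus strand), and Tm9sf1, a multispanning membrane protein (chr14:55643322-55643621, minus strand), had both marks. Arhgap44, a GTPase-activating protein (chr11:65162912-65163211, minus strand), had H3K27ac alone. Gipc3, a PDZ-domain protein (chr10:81343310-81343609, minus strand), and Irx3, an Iroquois homeobox factor (chr8:91801605-91801904, minus strand), had H3K18ac alone. Ptprc, the leukocyte antigen CD45 (chr1:138175077-138175376, minus strand), had neither.
Kdr: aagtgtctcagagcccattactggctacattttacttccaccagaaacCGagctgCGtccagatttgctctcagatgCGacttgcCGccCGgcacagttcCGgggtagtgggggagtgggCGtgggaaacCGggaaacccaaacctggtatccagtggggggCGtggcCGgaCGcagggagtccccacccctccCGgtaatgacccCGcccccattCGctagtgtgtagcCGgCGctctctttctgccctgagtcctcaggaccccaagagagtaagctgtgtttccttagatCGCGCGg
Tm9sf1: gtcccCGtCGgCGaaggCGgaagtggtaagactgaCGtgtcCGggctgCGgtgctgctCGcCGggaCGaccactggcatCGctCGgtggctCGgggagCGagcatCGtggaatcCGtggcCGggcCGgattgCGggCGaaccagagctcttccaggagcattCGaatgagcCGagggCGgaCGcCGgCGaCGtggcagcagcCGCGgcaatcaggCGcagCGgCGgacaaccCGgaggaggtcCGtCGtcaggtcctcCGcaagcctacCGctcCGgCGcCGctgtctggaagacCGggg
Arhgap44: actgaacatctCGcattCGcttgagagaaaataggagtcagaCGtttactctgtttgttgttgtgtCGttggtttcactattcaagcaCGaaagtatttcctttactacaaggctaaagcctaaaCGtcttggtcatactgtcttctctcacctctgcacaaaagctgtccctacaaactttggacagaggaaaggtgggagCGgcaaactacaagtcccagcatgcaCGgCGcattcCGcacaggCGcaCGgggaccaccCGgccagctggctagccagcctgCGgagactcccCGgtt
Gipc3: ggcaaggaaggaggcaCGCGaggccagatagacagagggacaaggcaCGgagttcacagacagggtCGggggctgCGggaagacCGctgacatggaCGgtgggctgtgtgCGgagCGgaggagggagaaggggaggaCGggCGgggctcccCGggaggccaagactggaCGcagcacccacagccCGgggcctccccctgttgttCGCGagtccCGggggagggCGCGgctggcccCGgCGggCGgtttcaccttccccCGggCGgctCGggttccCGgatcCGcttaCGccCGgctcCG
Irx3: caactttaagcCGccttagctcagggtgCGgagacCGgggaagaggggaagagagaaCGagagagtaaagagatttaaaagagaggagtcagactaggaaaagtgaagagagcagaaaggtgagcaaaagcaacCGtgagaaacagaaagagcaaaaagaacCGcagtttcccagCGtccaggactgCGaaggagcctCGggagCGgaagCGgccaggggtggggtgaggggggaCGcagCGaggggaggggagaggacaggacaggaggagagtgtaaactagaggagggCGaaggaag
Ptprc: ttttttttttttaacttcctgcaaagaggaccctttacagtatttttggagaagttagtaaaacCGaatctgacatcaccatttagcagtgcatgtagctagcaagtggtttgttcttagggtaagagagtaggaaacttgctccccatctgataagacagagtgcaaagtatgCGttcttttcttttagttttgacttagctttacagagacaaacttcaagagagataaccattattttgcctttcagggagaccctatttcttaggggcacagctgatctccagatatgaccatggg
Kdr held 19 CG dinucleotides in its 300 bases and Tm9sf1 held 41. Arhgap44 held 15, Irx3 held 14, and Gipc3 held 30, more than Kdr, so CG content does not separate these examples by class. Ptprc held 2. H3K27ac peaks covered 300 of the 300 bases at Kdr and Tm9sf1 and 90 at Arhgap44. H3K18ac peaks covered 288 bases at Kdr, 300 at Tm9sf1, 22 at Irx3 and 0 at Gipc3, where the nearest H3K18ac peaks lay outside the printed stretch but within 2 kb of the start.

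Libraries differed in depth and in how reads were spread. The H3K27ac library had 2533242 reads in the table, found in 59.2% of the 578465 region identifiers, and the H3K18ac library had 1546265 reads, found in 27.5%. Totals of the 9 libraries ran from 365999 reads (IgG) to 10044130 (H3K14ac), and IgG reads lay in 0.156% of identifiers. The peak lists carry no names in the table and were separated by genome order and width. Each was named after the library that was densest, relative to its depth, on the bases that no other identifier covers. That library was 5.15 times as dense as the second library in the H3K18ac list and 1.98 times in the H3K27ac list, and IgG came second in both. The cell type label was checked against peaks at marker genes. Of 12 endothelial markers, 11 had both marks within 2 kb of their ends, with a median of 606 bases under both (range 0 to 1071), and Cldn5 was the marker at 0. Both marks were also present at 5 of 8 lung epithelium markers (median 146 bases, range 0 to 713), 4 of 8 leukocyte markers (median 62.0, range 0 to 773) and 4 of 8 mesenchyme markers (median 132, range 0 to 411). Among all protein-coding genes 60.6% had both marks, with a median of 199 bases in common. The counts for the cell types other than endothelium are near that share. Epcam, Cdh1, Ptprc, Cd3e, Csf1r, Itgam, Pdgfra and Tcf21 had neither mark at their ends. What other cell types contributed was not tested.

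Most H3K27ac peaks lay on H3K18ac, while the H3K18ac peaks divided almost evenly. Of the 114890 H3K27ac peaks, 83165 (72.4%, Wilson interval 72.1 to 72.6%) were shared, and 31725 were not. Of the 171339 H3K18ac peaks, 83972 (49.0%, 48.8 to 49.2%) were shared, and 87367 were not. One-mark peaks held a smaller part of the bases than of the peaks: 15.7% of the H3K27ac bases against 27.6% of the peaks, and 30.3% of the H3K18ac bases against 51.0% of the peaks. The lists had 19333305 bases in common, 69.8% of the H3K27ac bases and 58.0% of the H3K18ac bases.

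Where peaks of the marks overlapped, their centres lay close together. Only pairs with a base in common were measured, so part of this closeness follows from the definition. There were 85897 overlapping pairs, and 76936 (89.6%) joined 1 peak to 1 peak. The centres of a pair lay a median of 29 bp apart (quartiles 12 and 62.5 bp), and 188 bp (quartiles 116 and 284 bp) lay under both. Neither mark was regularly the wider: H3K27ac was wider in 52.4% of pairs and H3K18ac in 47.1%. H3K18ac lay wholly inside H3K27ac in 25.1% of pairs, and H3K27ac wholly inside H3K18ac in 23.6%. Over the 1 to 1 pairs the widths of the partners had a Spearman correlation of 0.74, a description across pairs from the same 2 libraries.

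Width set the shared peaks apart from the others in each list. Shared peaks had a median width of 233 bp in both lists, with quartiles of 163 and 345 bp for H3K27ac and 153 and 344 bp for H3K18ac. One-mark peaks had medians of 108 bp (H3K27ac) and 104 bp (H3K18ac), which are the narrowest and also the commonest widths of these lists. At that narrowest width stood 53.6% of the one-mark H3K27ac peaks and 83.2% of the one-mark H3K18ac peaks, against 7.21% and 12.7% of the shared peaks. No peak of either list was narrower than its commonest width.

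At equal width the lists behaved alike above the narrowest peaks. Of peaks up to 150 bp but wider than the narrowest, 61.5% (60.8 to 62.2%) of H3K27ac peaks were shared, and of H3K18ac peaks a share in the interval from 59.2 to 60.8%. From 201 to 300 bp the shares were 90.4% and 88.1%, and from 401 to 600 bp 98.8% and 99.1%. Above 800 bp 99.9% of 1451 H3K27ac peaks and 100% of 1513 H3K18ac peaks were shared. At the narrowest width the lists parted: 26.1% (25.5 to 26.7%) of 22994 H3K27ac peaks but 12.8% (12.5 to 13%) of 83332 H3K18ac peaks were shared. With the narrowest peaks left out of both lists, 76.1% of H3K27ac and 79.7% of H3K18ac peaks were shared, the reverse of the order in the full lists. This setting also took 22994 H3K27ac and 83332 H3K18ac peaks away as possible partners. The order of these shares therefore depends on the lengths of the lists left and is no finding about the marks.

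**Figure D1:**
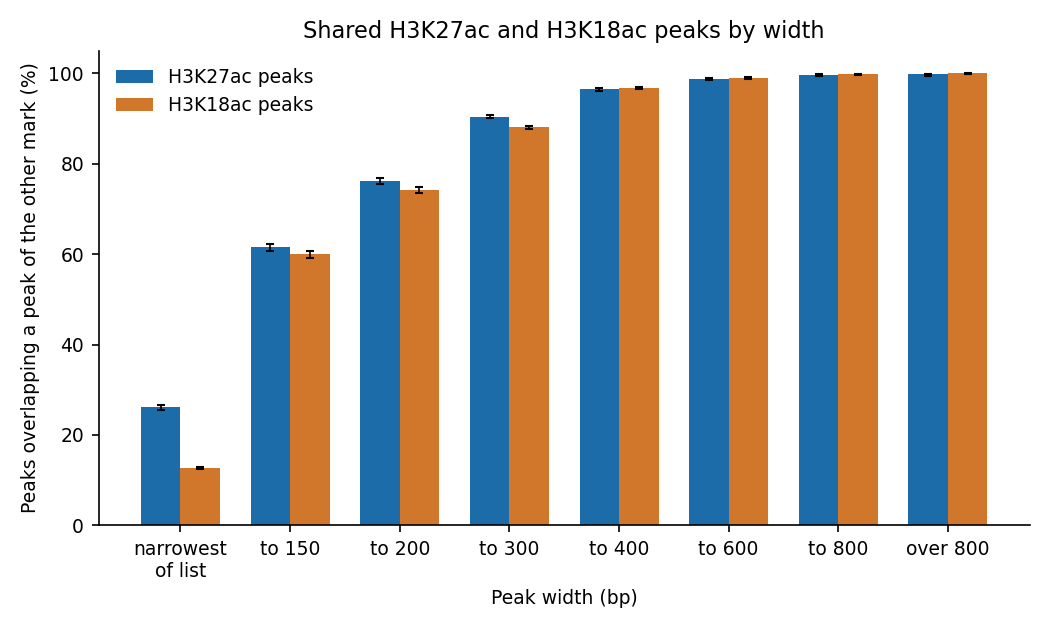
Share of peaks (vertical axis, %) that overlap a peak of the other mark, by peak width in bp (horizontal axis), for H3K27ac (blue) and H3K18ac (orange); black bars are 95% Wilson intervals. The lists differ at their narrowest width (26.1% and 12.8%), lie close together in every wider class, and reach 99.9% and 100% above 800 bp.

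The share was similar from chromosome to chromosome for H3K27ac and less so for H3K18ac. It ran from 70.0% (chromosome 14) to 74.3% (chromosome 10) of H3K27ac peaks on the autosomes and was 71.6% on the X. For H3K18ac it ran from 46.9% (chromosome 14) to 51.8% (chromosome 19) on the autosomes, and was 42.4% (40.9 to 44.0%) of 3933 peaks on the X. The Y chromosome held 33 H3K27ac and 141 H3K18ac peaks, of which 63.6% (46.6 to 77.8%) and 14.2% (9.37 to 20.9%) were shared.

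Shared peaks lay at gene ends more often than one-mark peaks did. Within 2 kb of an end of a protein-coding gene lay 23% (22.7 to 23.3%) of shared H3K27ac peaks and 23.1% of shared H3K18ac peaks, against 13.2% (12.9 to 13.6%) of one-mark H3K27ac peaks and 10.6% (10.4 to 10.8%) of one-mark H3K18ac peaks. For 17492 of the 21887 genes RefSeq gave a start with its strand, and within 2 kb of such a start lay 17.9% of shared and 8.29% of one-mark H3K27ac peaks, and 18% of shared and 6.18% of one-mark H3K18ac peaks. The gene bodies held more of the one-mark H3K27ac peaks: 52.4% lay inside a gene and away from its ends, against 42.8% of shared H3K27ac peaks and 44.0% of one-mark H3K18ac peaks. Outside genes lay 45.4% (45.1 to 45.7%) of the one-mark H3K18ac peaks, against 34.4% of the one-mark H3K27ac peaks and 34.3% of the shared H3K27ac peaks.

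One-mark peaks were often near the other mark without touching it. The nearest H3K18ac peak lay a median of 2495 bp from a one-mark H3K27ac peak, and 33.0% lay within 1 kb. The nearest H3K27ac peak lay a median of 4806 bp from a one-mark H3K18ac peak, and 23.8% lay within 1 kb. The H3K18ac list is the longer one, so these distances are not compared with each other.

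Around the start itself the marks had almost the same profile. At the annotated start, 45.3% of 21263 starts lay under an H3K27ac peak, 44.0% under an H3K18ac peak and 40.7% under both. At 200 bp downstream the values were 27.2%, 26.3% and 20.4%. At 1000 bp upstream they were 3.09%, 3.65% and 2.40%, and at 1000 bp downstream 4.23%, 4.35% and 2.81%. H3K27ac was slightly the higher at the start, and H3K18ac slightly the higher at 1000 bp on either side.

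**Figure D2:**
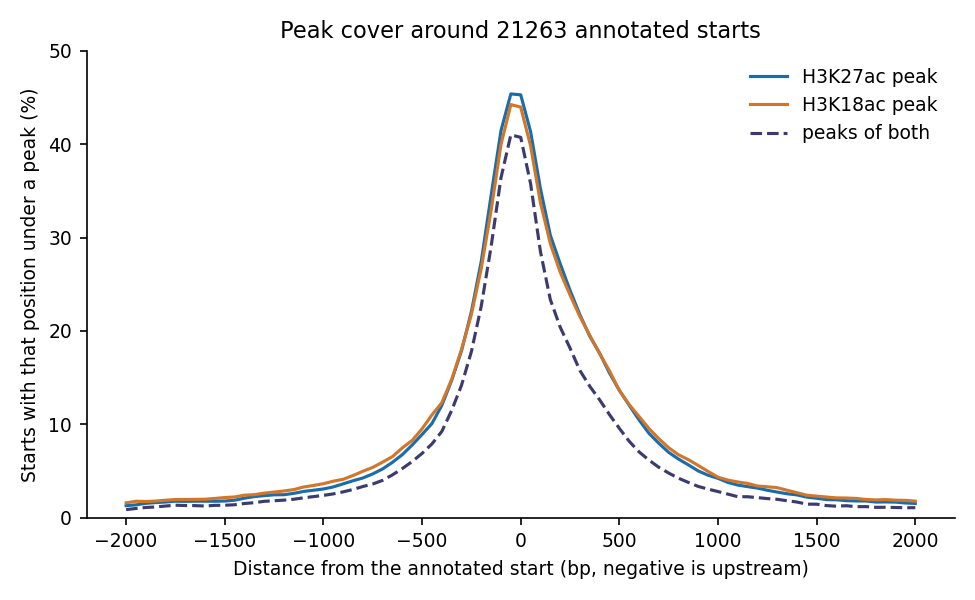
Share of 21263 annotated gene starts (vertical axis, %) at which a position lies under an H3K27ac peak (blue), an H3K18ac peak (orange) or peaks of both (dashed), against the distance from the start in bp (horizontal axis, upstream negative). At the start the values are 45.3%, 44.0% and 40.7%, and the curves stay close to each other out to 2000 bp.

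Shared peaks carried other marks far more often than one-mark peaks, but they were also wider, and the classes were not matched for width. H4K8ac, an acetylation of histone H4, overlapped 81.9% of shared H3K27ac peaks, 27.9% of one-mark H3K27ac peaks, 81.3% of shared H3K18ac peaks and 13.8% of one-mark H3K18ac peaks. No peak of the other 6 marks overlapped 44.1% (43.6 to 44.7%) of one-mark H3K27ac peaks and 66.0% (65.7 to 66.3%) of one-mark H3K18ac peaks, against 5.45% and 5.79% of shared peaks. Peaks of the other 6 marks all together overlapped 12.4% of shared H3K27ac peaks, 0.0676% of one-mark H3K27ac peaks and 0.0410% of one-mark H3K18ac peaks. These shares moved with width: with the narrowest peaks left out, H4K8ac lay on 47.0% of one-mark H3K27ac and 41.4% of one-mark H3K18ac peaks.

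H3K4me3, the methylation found at active promoters, was split by place. Within 2 kb of a start it overlapped 87.5% of shared H3K27ac peaks, 58.6% (56.7 to 60.5%) of 2577 one-mark H3K27ac peaks and 36.9% (35.6 to 38.2%) of 5266 one-mark H3K18ac peaks. Over 2 kb from a start the shares were 27.7%, 5.41% and 2.81%. H3K9ac, another acetylation of promoters, followed the same order near starts (73.2%, 25.4% and 18.9%) and away from them (29.0%, 3.31% and 2.15%). H2AK5ac, an acetylation of histone H2A, did not favour starts among the shared H3K27ac peaks: it overlapped 38.5% of them near starts and 41.6% away from starts, against 6.91% and 5.96% of one-mark H3K27ac peaks and 5.05% and 3.66% of one-mark H3K18ac peaks. Without the narrowest peaks the order of the one-mark classes turned for these acetylations, with H3K9ac on 8.93% of one-mark H3K27ac and 10.6% of one-mark H3K18ac peaks in all places together, and H2AK5ac on 10.8% and 12.6%.

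**Figure D3:**
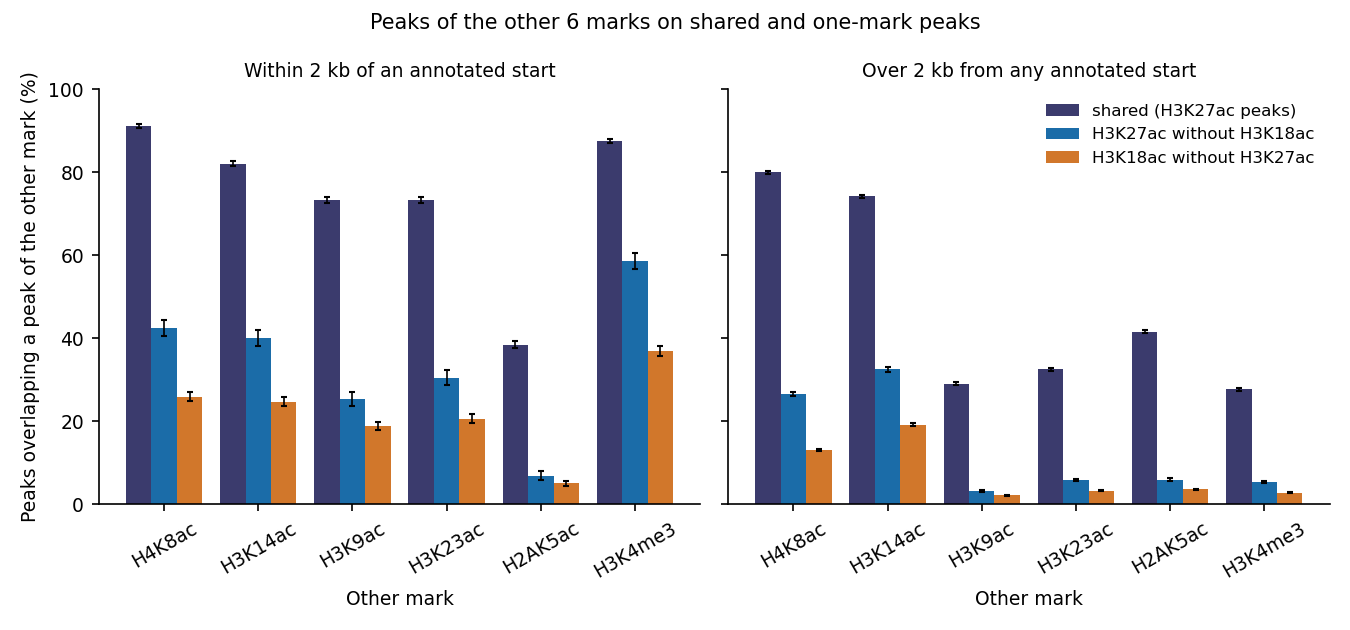
Share of peaks (vertical axis, %) overlapped by peaks of each of the other 6 marks (horizontal axis), within 2 kb of an annotated start (left) and farther away (right), for shared H3K27ac peaks (dark), H3K27ac peaks without H3K18ac (blue) and H3K18ac peaks without H3K27ac (orange); black bars are 95% Wilson intervals. In each mark and place the shared peaks are highest and the H3K18ac peaks without H3K27ac are lowest, for H3K4me3 near starts 87.5%, 58.6% and 36.9%; for H3K9ac and H2AK5ac the order of the blue and orange classes turned without the narrowest peaks.

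The widest stretches under both marks lay in genes. The widest ran over 1820 bp in Hnrnpk, an RNA-binding protein of the spliceosome (chr13:58401515-58403334). Others were 1480 bp at Prdm10 (chr9:31279897-31281376), 1475 bp at Nfe2l2, which encodes the stress factor NRF2 (chr2:75703409-75704883), 1427 bp at the ubiquitin-conjugating enzyme Ube2d3 (chr3:135437973-135439399) and 1377 bp at Abhd11 (chr5:135008581-135009957). Each of these also carried peaks of the other 6 marks.

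The widest one-mark peaks were shorter. For H3K27ac they were 937 bp on chr4:31302868-31303804, 659688 bp from the nearest protein-coding gene Map3k7, and 850 bp on chr6:87457232-87458081, 463 bp from Arhgap25. A further H3K27ac peak of 786 bp lay in Cfap20dc (chr14:8486539-8487324) and carried 1 of the other 6 marks. For H3K18ac they were 675 bp in Bri3 (chr5:144255497-144256171), with all of the other 6 marks, 674 bp in Sfswap (chr5:129500805-129501478), with 3 of them, and 673 bp on chr19:36110104-36110776, 1189 bp from Ankrd1, with 0. A peak of 575 bp lay in Stab2, a scavenger receptor of sinusoidal endothelium (chr10:86992601-86993175).

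At the level of genes, both marks were present together at most genes that had either. Within 2 kb of the gene ends, 13274 of 21887 protein-coding genes (60.6%) had peaks of both marks, 544 (2.49%) had H3K27ac alone, 1695 (7.74%) had H3K18ac alone and 6374 (29.1%) had neither. With windows at the annotated starts of 17492 genes, the shares were 58.5%, 2.39%, 6.11% and 33.0%, and over whole genes with 2 kb either side 70.0%, 1.63%, 7.28% and 21.1%. Genes with 1 mark alone mostly had little of it: 1406 of the 1695 genes with H3K18ac alone (82.9%, 81.1 to 84.7%) and 251 of the 544 with H3K27ac alone (46.1%, 42.0 to 50.3%) had only peaks of the narrowest width. At genes with both marks, 2.68% had only narrowest H3K27ac peaks and 5.72% only narrowest H3K18ac peaks. Covered bases per gene averaged 403 for H3K27ac, 416 for H3K18ac and 308 for both together, with a Spearman correlation of 0.93 across genes, which are not independent replicates and share their libraries. With the narrowest peaks left out, 821 genes had H3K27ac alone and 414 had H3K18ac alone, which turns the order of these classes round. That setting drops 22994 H3K27ac but 83332 H3K18ac peaks.

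The 6 genes with most bases under both marks at their ends were chosen by those bases, so a large part in common is set by the choice. Over all protein-coding genes the means were 403 H3K27ac bases, 416 H3K18ac bases and 308 under both. Klf13, a zinc-finger transcription factor (chr7:63886351-63938915), had 2668 H3K27ac bases, 2700 H3K18ac bases and 2547 under both. Bhlhe40, a basic helix-loop-helix repressor (chr6:108660629-108666925), had 2433, 2487 and 2330. Tm9sf1, whose promoter is printed above, had 2055, 2064 and 1959, and Hnrnpk had 1930, 1820 and 1820. Adamtsl4, a secreted matrix protein (chr3:95676201-95687927), had 2163, 2090 and 1917, and Gm46294 (chr11:98937263-98942246) had 2067, 2288 and 1972. Peaks of all the other 6 marks lay at the ends of these 6 genes. At Adamtsl4 the widest H3K27ac and H3K18ac peaks lay 12128 and 12165 bp from the start.

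Genes with most H3K27ac and no H3K18ac at their ends had less than these. Arhgap25, a GTPase-activating protein of blood cells (chr6:87458544-87533261), had 850 H3K27ac bases in 1 peak outside the gene, 38246 bp from its nearest annotated start. Arhgap44 (chr11:65002039-65162972) had 765 bases in 3 peaks, the widest over its start. Vwce (chr19:10634218-10666213) had 598, the zinc-finger gene Zfp287 (chr11:62692444-62731912) 594, Cnot8, a deadenylase of the CCR4-NOT complex (chr11:58092794-58118597), 569 and Naxe, an NAD(P)HX epimerase (chr3:88056520-88058542), 548. At Zfp287 and Naxe the widest H3K27ac peak lay on the annotated start, and at Cnot8 it lay 12742 bp from the nearest one. Over the whole gene H3K18ac was present at all of these except Naxe, with 104 bases at Zfp287 and 2560 at Arhgap44.

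Genes with most H3K18ac and no H3K27ac at their ends included developmental and neuroendocrine factors. Insm1, a zinc-finger factor of neuroendocrine cells (chr2:146221997-146225020), had 720 H3K18ac bases in 3 peaks, the widest 454 bp. Irx3 (chr8:91798511-91801654) had 672 in 5 peaks, and Gipc3 (chr10:81335262-81343620) had 698 in 5 peaks. Fam78b (chr1:166999851-167091302) had 722, and its ends also carried peaks of the other 6 marks. Cdh26, a cadherin (chr2:178430515-178487366), had 636, and Plac9b (chr14:26167316-26182351) had 651. Plac9b has a near-identical copy, so its reads may belong to either. Over the whole gene 4 of these 6 had no H3K27ac base, and Fam78b and Cdh26 had 108 and 968.

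Endothelial identity genes carried both marks at nearly all members, beside 60.6% of all protein-coding genes. Of 33 endothelial identity genes, 31 (93.9%) had both, with a median of 498 bases under both against 199 over all genes, 1 had H3K18ac alone and 1 (Cldn5) had neither. H3K18ac covered more bases than H3K27ac at 22 of these genes and fewer at 10, but without the narrowest peaks more at 13 and fewer at 18, so this order turned with the width of the peaks. Over all genes the counts were 8557 and 6906, and 5972 and 7600 without the narrowest peaks. Kdr (chr5:75932827-75979072) had 1572 H3K27ac bases and 1245 H3K18ac bases, 1071 of them in common. Its widest H3K27ac peak lay on a start, and its widest H3K18ac peak lay 44350 bp from one. Klf4, a flow-responsive factor (chr4:55527137-55532475), had 1366 and 1434, and the ETS factor Ets2 (chr16:95702407-95721049) 1278 and 1183.

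Members of the endothelial panel differed in how much they had at their ends. Cdh5, which encodes VE-cadherin (chr8:104101613-104144504), had 1019 H3K27ac and 1393 H3K18ac bases, and Tek, the angiopoietin receptor TIE2 (chr4:94739086-94874976), 803 and 1322. Tie1, its orphan relative (chr4:118471191-118489849), had 456 and 955. Pecam1, the adhesion molecule CD31 (chr11:106654213-106715281), had 784 and 666, and the ETS factor Fli1 (chr9:32422204-32543432) 642 and 665. Sox17, a factor of arterial endothelium (chr1:4490928-4497426), had 406 and 432 with 109 in common. Erg, another ETS factor (chr16:95359169-95586600), had 133 and 147 at its ends but 4491 and 5267 over the whole gene. Icam2, an adhesion molecule of endothelium (chr11:106377656-106388139), had 0 H3K27ac and 208 H3K18ac bases at its ends, in 2 narrowest peaks, and 671 and 782 over the whole gene. So the lack of H3K27ac at the ends of Icam2 does not extend over the gene.

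Arterial and venous groups had equal counts of genes with both marks, and the capillary group a lower one, a difference that was not tested. Of 17 arterial and Notch genes, 15 had both marks, among them the Notch ligand Jag1 (chr2:137081451-137116520) with 1306 bases in common, the Notch target Hes1 (chr16:30065357-30067796) with 1226 and Hey1 (chr3:8663359-8667038) with 971. Gja5, the gap junction protein connexin 40 of arteries (chr3:97032402-97053634), had 520 H3K18ac bases in 5 narrowest peaks and no H3K27ac peak at its ends or in its body. Of 17 venous and lymphatic genes, 15 had both marks, including the venous receptor Ephb4 (chr5:137350109-137374522, 906 bases in common), the adhesion receptor Selp (chr1:164115264-164150026, 882) and the lymphatic VEGF receptor Flt4 (chr11:49609679-49652739, 838). At Selp the widest H3K27ac peak lay 36415 bp and the widest H3K18ac peak 453 bp from the start. Of 17 lung capillary genes, 9 (52.9%, beside 60.6% of all genes) had both, 1 had H3K27ac alone and 4 (23.5%, beside 7.74%) H3K18ac alone. With windows of 1 kb, and also without the narrowest peaks, 7 of the 17 had both. Plvap, of fenestral and caveolar diaphragms (chr8:71497753-71511806), had 1138 bases in common, and Ednrb, an endothelin receptor of capillary cells (chr14:103814615-103844508), had 637. Kitl, the ligand of the KIT receptor (chr10:100015615-100100416), had 448 bases in common, while Kit itself (chr5:75574987-75656722) had 478 H3K27ac bases in 2 peaks and no H3K18ac base at its ends, and 1647 and 1466 over the whole gene. The 4 capillary genes with H3K18ac alone were Car4, Hpgd, Prx and Sema3c, named here outside the rule and after their values were seen, and 3 of them had no more than the 104 bases of 1 narrowest peak.

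Genes that write, read and remove acetylation mostly carried both marks. Of 11 genes for CBP, p300, their partners and BET readers, 10 had both (90.9%, beside 60.6% of all genes). Ep300, which encodes p300 (chr15:81586209-81652077), had 1 peak of each mark over its start, of 1338 and 1382 bp, with 1337 bases in common. Crebbp, which encodes CBP (chr16:4081334-4213957), had 747 and 832 bases with 638 in common. Cited2, a CBP/p300-binding protein (chr10:17723228-17725674), and the coactivator Ncoa2 (chr1:13139105-13374227) had 1177 and 1142 in common. Of 28 other acetyltransferases and deacetylases, 24 (85.7%) had both, among them Hdac2 (chr10:36974297-37001889), with 906 bases in common, Hdac3 (845 in common) and Gtf3c4 (837 in common). Hdac8 (chrX:102284638-102505381) had 1 H3K27ac peak of 110 bp on its start and no H3K18ac at its ends. Taf1 (chrX:101527572-101601789) and Hdac7 (chr15:97792661-97844502) had H3K18ac alone, with 238 and 104 bases, and Hdac7 had 4490 H3K27ac and 4693 H3K18ac bases over the whole gene. These 2 genes are 7.14% of the group, beside 7.74% of all genes with H3K18ac alone. Their H3K18ac peaks lay 5009 and 22292 bp from the nearest annotated start, which the windows at the gene ends do not hold.

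The series title concerns cystine import and its breakdown, so genes of these pathways were listed too. Of 30 cystine, cysteine and glutathione genes, 23 (76.7%) had both marks. Got1, an aspartate aminotransferase (chr19:43499752-43524605), had 1145 bases in common, Txn1, thioredoxin (chr4:57943373-57956411), had 1101 and Gclm, a subunit of the enzyme that starts glutathione synthesis (chr3:122245487-122267215), had 1033. Slc7a11, the cystine importer xCT (chr3:50364936-50499087), had 0 H3K27ac bases and 1 H3K18ac peak of 104 bp at its ends, 56534 bp from its nearest annotated start, and 2807 H3K27ac and 3800 H3K18ac bases over the whole gene. That start lies outside the windows at the gene ends, so the counts at the ends do not describe its promoter. Txnrd1, thioredoxin reductase (chr10:82833951-82897724), and the glutamyltransferase Ggt5 (chr10:75589327-75617200) also had H3K18ac alone, with 231 and 104 bases. The widest H3K18ac peak at Txnrd1 lay 35906 bp from its nearest annotated start. Cdo1, cysteine dioxygenase, had H3K27ac alone, with 281 bases. The ends of Slc7a11 carried no peak of the other 6 marks.

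Of 23 genes of acetyl-CoA supply, 21 (91.3%, beside 60.6% of all genes) had both marks. Mpc1, a subunit of the mitochondrial pyruvate carrier (chr17:8283787-8297667), had 1143 bases in common, Pdha1, of the pyruvate dehydrogenase complex (chrX:160122219-160138430), had 741, and its kinase Pdk4 (chr6:5483351-5496278) had 733. Acss1, a mitochondrial acetyl-CoA synthetase (chr2:150618111-150668240), had H3K27ac alone, 206 bases in 1 peak 119 bp from its start. In this group H3K27ac covered more bases than H3K18ac at 15 genes and fewer at 6. Without the narrowest peaks it covered more at 17 and fewer at 5, over whole genes more at 16 and fewer at 7, so here the order held under these settings. Over all genes H3K27ac covered more at 6906 and fewer at 8557. These counts were 7600 and 5972 without the narrowest peaks, and 6575 and 10663 over whole genes. Housekeeping genes also leaned to H3K27ac, with 13 against 10, 15 against 8 and 13 against 10 in these settings.

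All members of 3 groups had both marks, beside 60.6% of all genes: 21 of 21 stress response genes, 21 of 21 immediate-early genes and 23 of 23 housekeeping genes. Nfe2l2 (chr2:75675513-75704663) had 1475 bases in common, Atf4, of the amino acid response (chr15:80255184-80257545), 1135, and the serine synthesis gene Psat1 (chr19:15905123-15925059) 1075. Immediate-early genes, which respond to stimuli within minutes, had the highest median in common of all the groups, 823 bases, with 1468 at Myc (chr15:61985341-61990361), 1465 at Junb (chr8:84976909-84978748) and 1409 at Dusp6 (chr10:99263231-99267489). H3K18ac covered more than H3K27ac at 17 of these 21 genes and less at 4, and at 16 and 5 without the narrowest peaks. Over all genes these counts were 8557 and 6906, and 5972 and 7600 without the narrowest peaks. Housekeeping genes had a median of 605 in common, with 1281 at the spliceosome gene Snrpd3 (chr10:75518042-75535440), 1208 at Gapdh (chr6:125161852-125166467) and 1127 at Vcp (chr4:42979964-43000507).

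Groups of other cell types had both marks at fewer members than the 60.6% of all genes, and their share with H3K18ac alone, beside 7.74% of all genes, varied. Of 19 lung epithelium genes, 8 had both, 5 had H3K18ac alone and 6 neither. Sftpc, the surfactant protein of alveolar type II cells (chr14:70520941-70524081), had 503 and 457 bases, and Krt8 (chr15:101996711-102004342) and Abca3 (chr17:24351921-24410204) had 713 and 639 in common. The widest peaks at Krt8 lay 8419 and 8474 bp from its start. Of 21 leukocyte genes, 7 had both, 1 (the B cell gene Cd79a, 216 bases) had H3K27ac alone, 0 had H3K18ac alone and 13 had neither. Cd68 (chr11:69664213-69666170) and the myeloid factor Spi1 (chr2:91082374-91115759) had 773 and 763 in common, and the widest peaks near Cd68 lay over 3 kb from its start, so the window can hold elements of neighbouring genes. Of 19 mesenchyme genes, 9 had both, including Acta2 (411 in common), Tagln (310) and Col1a1 (283). Col1a2, Col3a1 and Dcn, genes of fibroblast matrix, had H3K18ac alone with 104, 208 and 136 bases. Without the narrowest peaks H3K18ac alone was found at 1 epithelial, 0 leukocyte and 1 mesenchyme gene, and H3K27ac alone at 1, 0 and 2.

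Neuronal and developmental genes included several with H3K18ac and no H3K27ac at their ends. Of 19 neuronal genes 4 (21.1%) had both and 7 (36.8%) had H3K18ac alone, and of 28 developmental transcription factors 8 (28.6%) had both, 8 (28.6%) H3K18ac alone and 1 H3K27ac alone, beside 7.74% with H3K18ac alone among all genes. In 5 of the 7 neuronal and 6 of the 8 developmental genes the H3K18ac bases were no more than the 104 of 1 narrowest peak. Without the narrowest peaks, H3K18ac alone was found at 3 neuronal genes and 1 developmental gene, and H3K27ac alone at 0 and 2. With windows of 1 kb H3K18ac alone was found at 2 neuronal and 7 developmental genes. Tubb3 (chr8:123411553-123422015), with 730 bases in common, and Syn1 (chrX:20860511-20920918), with 719, were neuronal genes with both marks, and the widest peaks at Tubb3 lay 10680 and 10673 bp from its start. At Syn1 the widest H3K27ac peak lay 58424 bp and the widest H3K18ac peak 787 bp from the start. Hoxd9 (chr2:74697763-74700208), with 1492 in common, and Lhx9 (chr1:138825186-138848839), with 576, were developmental genes with both. Hoxd13 (chr2:74668225-74671603) had 266 H3K27ac bases alone. Of 20 genes of liver, pancreas and muscle, 4 had both, 3 (Alb, Apob and Cyp2e1, with 124, 104 and 104 bases) had H3K18ac alone and 13 had neither.

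**Figure D4:**
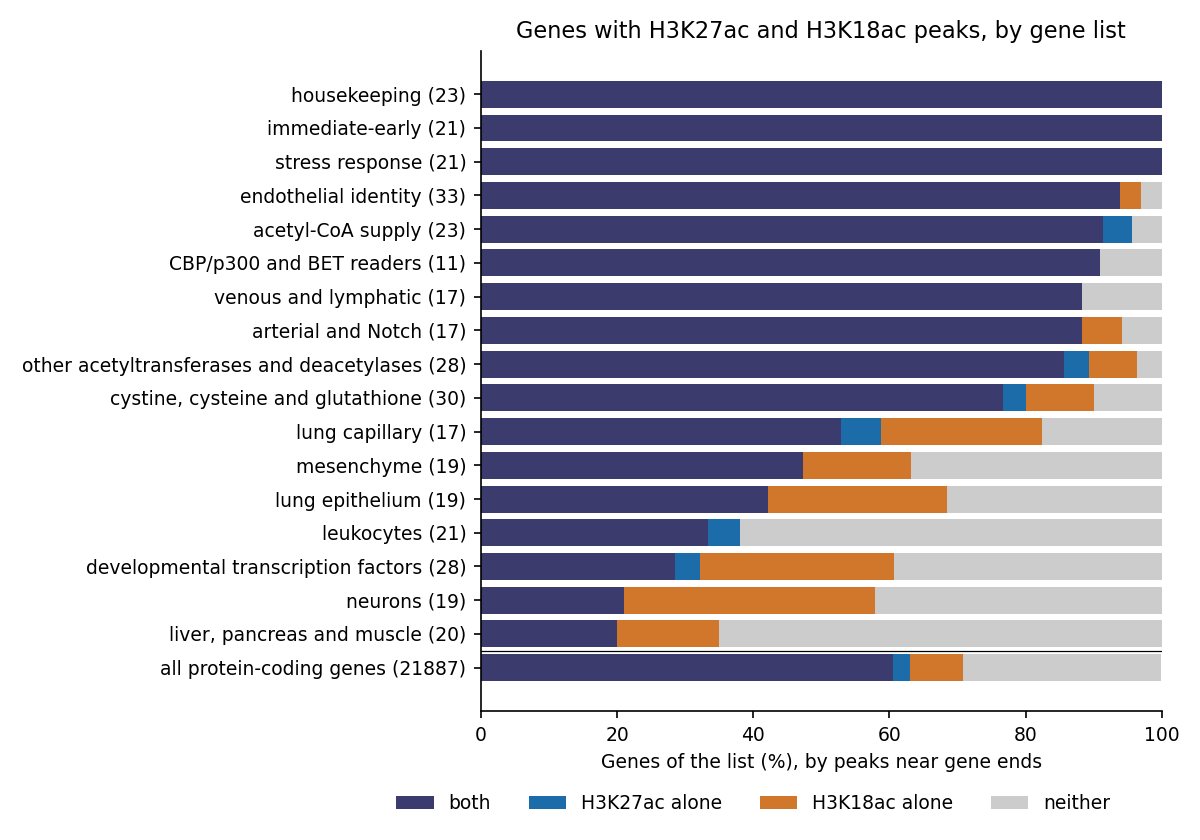
Share of the genes of each group (horizontal axis, %; number of genes in brackets) with peaks of both marks (dark), H3K27ac alone (blue), H3K18ac alone (orange) or neither (grey) within 2 kb of the gene ends, with all protein-coding genes in the lowest bar. The endothelial identity, arterial, venous, acetylation, acetyl-CoA, stress, immediate-early and housekeeping groups reach 85.7 to 100% with both. Cystine genes stand at 76.7% and lung capillary genes, also of endothelium, at 52.9%, beside 60.6% of all genes. Groups of other cell types and developmental factors lie at 47.4% or below.

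Over all annotated starts the classes differed in base composition. The 12385 starts with both marks had a median of 21 CG dinucleotides in the 300 bases, the 553 with H3K27ac alone 7, the 1349 with H3K18ac alone 6 and the 6976 with neither 3, beside 13 over all 21263 starts. GC content had medians of 61.0%, 54.3%, 53.7% and 47.3%. The GC box GGGCGG (either strand, the core site of SP1-family factors) stood in 63.9%, 38.0% (34.0 to 42.1%), 35.3% (32.8 to 37.9%) and 17.6% of starts, beside 46.2% of all. The sequence CCGGAAG, a core of ETS-family sites, stood in 17.7%, 5.97%, 5.26% and 2.38%, beside 11.6% of all. TATAAA ran the other way, with 6.90%, 11.4%, 14.8% and 22.4%, beside 12.6% of all. CCAAT differed less, with 38.2%, 37.8%, 32.5% and 39.3%, beside 38.2% of all. The NRF1 motif stood in 2.06%, 0.904%, 0.297% and 0.272%, beside 1.33% of all, CACGTG in 10.1%, 7.05%, 4.97% and 4.34%, beside 7.84%, and TGANTCA in 5.34%, 7.05%, 9.41% and 9.45%, beside 6.99%. The starts with 1 mark alone lay between the other classes in CG content, GC boxes and TATAAA, and the intervals of the one-mark classes overlapped each other for GC boxes and for CCGGAAG (4.28 to 8.26% and 4.19 to 6.59%). A match is a string of letters and not a site that a factor was shown to use.

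Reads were examined in 2 ways, because the count of an identifier sums over all regions that carry its number. The first used the 398202 identifiers with 1 region. All such regions belong to the longest list, that of H3K14ac, and reads over a second identifier were discarded, so these reads lie outside the H3K27ac and H3K18ac peaks. These identifiers hold 29.0% of all H3K27ac reads and 11.9% of all H3K18ac reads. Of the 20927 identifiers with at least 10 reads over both libraries, 43.3% had at least 2-fold more H3K27ac and 12.1% at least 2-fold more H3K18ac, with a median log2 ratio of 0.73 in CPM (read counts scaled to a common total per library). When the libraries were scaled to a median ratio of 0, which draws the shares together by construction, the split was 31.9% and 27.2%. With at least 20 reads it was 22.5% and 19%. Among the identifiers higher in H3K27ac, 63.5% had no H3K18ac read, while 4.12% of those higher in H3K18ac had no H3K27ac read. The filter is on the sum of both libraries, so 5748 of the identifiers entered through H3K27ac reads alone and 104 through H3K18ac reads alone, and the split is in part set by the filter and the depths.

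The second way estimated reads per kb on bases that no other identifier covers. In one-mark H3K27ac peaks the H3K27ac library had 48.0 CPM per kb and the H3K18ac library 9.80. In one-mark H3K18ac peaks the H3K18ac library had 70.2 CPM per kb and the H3K27ac library 12 CPM per kb. In places of the H3K14ac list they had 5.66 (H3K27ac) and 1.96 (H3K18ac). The lists were named by density on these same bases, so the lead of each library in its own class is no finding. In the unshared bases of shared peaks both libraries were lower than in their one-mark peaks, with 29.4 CPM per kb (H3K27ac library, shared H3K27ac peaks) and 46.0 (H3K18ac library, shared H3K18ac peaks). These bases came to 903.983 and 1094.88 kb, while the shared peaks hold 23338803 and 23249500 bases. Bases under a partner peak with another identifier are left out, so these values do not give the signal of whole shared peaks. IgG was estimated at 14.7 and 10.9 CPM per kb in the one-mark classes, at 31.6 in shared H3K18ac peaks and at 50.7 in shared H3K27ac peaks, above the H3K27ac library there, but its reads lie in 0.156% of identifiers, so these estimates rest on few places.

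Some one-mark peaks had an identifier whose reads could come from nowhere else, and their reads can be given peak by peak. There were 71 such H3K27ac peaks and 847 such H3K18ac peaks, 60 and 784 of them of the narrowest width, so they describe the narrow peaks. They were chosen for a peak of 1 mark and none of the other, so the lead of their own library is no finding. The H3K27ac peaks had a median of 12 H3K27ac reads (quartiles 10 and 18, highest 46) and 0 H3K18ac reads, and 53 of 71 (74.6%, 63.4 to 83.3%) had no H3K18ac read. The H3K18ac peaks had a median of 10 H3K18ac reads (quartiles 8 and 14, highest 78) and 1 H3K27ac read, and 316 of 847 (37.3%, 34.1 to 40.6%) had no H3K27ac read. Without reads of their own mark were 4 of the 71 and 31 of the 847 peaks. IgG had 0 reads in all of them, but its reads lie in 0.156% of all identifiers, so this says little about the background there. A limit of 3 IgG reads corresponds to 0.979 CPM per kb in the H3K27ac peaks and 0.0890 in the H3K18ac peaks, and the upper ends of the exact Poisson intervals are 1.20 and 0.1095. These limits take the IgG reads as evenly spread, which they were not. The peak with 46 H3K27ac reads (chr6:99375552-99375825) had 9 H3K18ac reads, and the peak with 78 H3K18ac reads (chr7:89662102-89662211) had 40 H3K27ac reads, so some one-mark peaks held reads of the other mark without a peak of it. In CPM per kb these sums were 48.8 (exact Poisson interval 45.9 to 51.9) for H3K27ac and 8.11 (6.63 to 9.82) for H3K18ac in the H3K27ac peaks, and 68.3 (67.0 to 69.7) for H3K18ac and 10.9 (10.5 to 11.3) for H3K27ac in the H3K18ac peaks. Mates are counted singly, and 88.0% of the 847 H3K18ac counts were even, so the reads are not independent molecules and the intervals are too narrow.

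**Figure D5:**
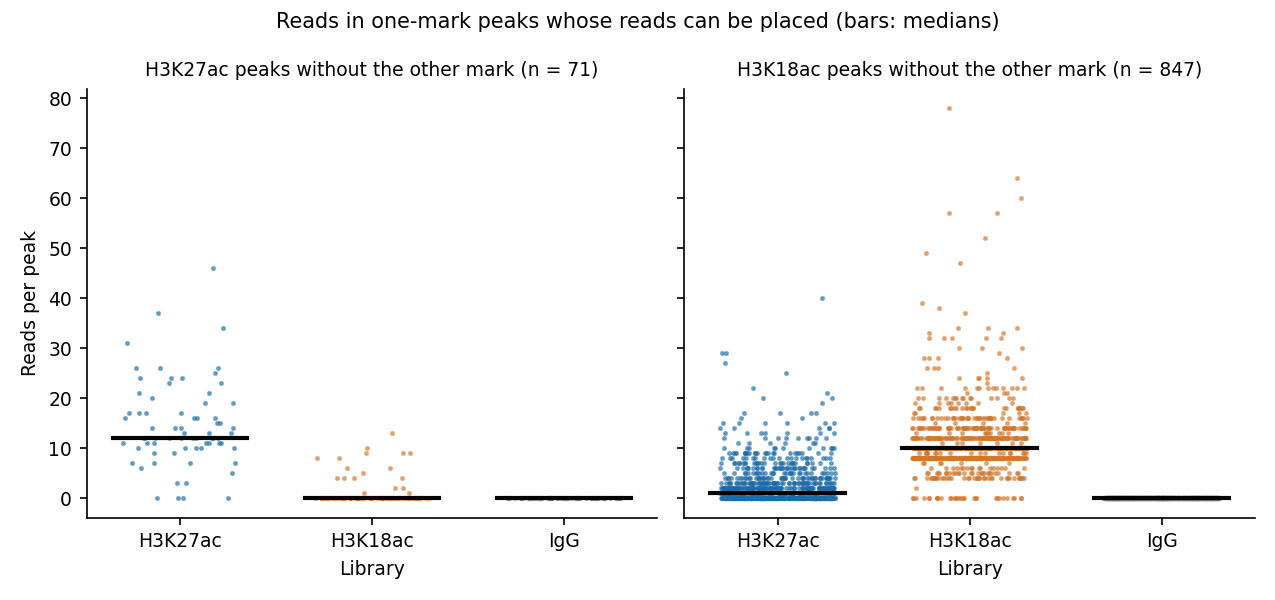
Reads per peak (vertical axis) of the H3K27ac, H3K18ac and IgG libraries (horizontal axis) in 71 H3K27ac peaks without H3K18ac (left) and 847 H3K18ac peaks without H3K27ac (right) whose reads come from that peak alone; each point is a peak and black lines are medians. Medians are 12, 0 and 0 on the left and 1, 10 and 0 on the right. The peaks were chosen for 1 mark without the other, so the lead of their own library is no finding.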

How the data were processed

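ACT-seq libraries of 8 histone marks and IgG, 1 each, were analysed from 1 deposited table. Per the file headers, the authors made its read counts with featureCounts 2.0.6 from a region file, with mates counted singly, without strand, and with reads over several identifiers discarded. The submitters' processing notes name Trim Galore, STAR, MACS2 and the builds mm10 and GRCm38.p6. Settings of the peak caller, its use of IgG and any removal of duplicates were not given in the sources used here.

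The 578465 identifiers hold 1309635 regions of 8 lists, each numbered from 1. The lists were separated by genome order, a smallest gap of 76 bp and width, with 0 conflicts (Python 3.11.15, numpy 2.4.6, scipy 1.17.1, numba 0.67.0), and named by the densest library. The separation and the interval counts were tested on simulated data. Starts are counted from 0 in the file and from 1 here. Both gene ends, not the 5′ ends planned, were the main windows, because starts with strand covered 17492 of 21887 RefSeq genes. Where an annotated start lies inside the gene span, these windows can miss it, and they count bases at either end alike. Covered bases were summed per gene, and the windows of short genes merge. Log ratios used a prior count of 2, and densities came from non-negative least squares. Library totals were 365999 to 10044130 reads.

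The members and the 17 gene lists were chosen with earlier results of these data known. Named genes are the 6 with most bases under both marks, the 6 with most of each mark without the other, up to 3 per gene list with most in common, list members with 1 mark alone where 3 or fewer, and a panel of 14. A gene that the rule names is not reported here. Overlap, width, window, filter and scaling were varied. Reads placed peak by peak and windows at starts were added after the data were seen.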

Additional observations from a re-analysis of the deposited data

How the results depend on the processing

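No p-value was computed, so the values below show movement only; 18 of 66 alternative values of the main results stayed within their interval or within 1.5 times, 48 moved. Only the gaps in median width could change sign, and they did not. The order of the marks turned without the narrowest peaks for the share of shared peaks and for genes with 1 mark alone. That setting drops more H3K18ac than H3K27ac peaks, also as partners, so these orders depend on the lengths of the lists left. Shared peaks of H3K27ac and H3K18ac were 69.8% and 47.1% when the overlap had to reach 50% of the narrower peak, 78.8% and 57.2% within 500 bp, and 76.1% and 79.7% without the narrowest peaks. The gap in median width between shared and one-mark peaks, 125 bp for H3K27ac and 129 bp for H3K18ac, became 130 and 135 bp with the stricter overlap and 102 and 101 bp without the narrowest peaks. Separating the lists by genome order alone left 72.4% and 49.0% shared.

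At gene ends lay 18.6% of shared and 8.78% of one-mark H3K27ac peaks with windows of 1 kb, and 30.8% and 21.7% with 5 kb. For H3K18ac these were 18.8% and 6.69%, and 31.0% and 18.3%. Without the narrowest peaks they were 24.3% and 16.4% (H3K27ac) and 24.4% and 14.6% (H3K18ac), and the stricter overlap gave 13.9% and 11% of one-mark peaks. Without the narrowest peaks H4K8ac lay on 87.9% of shared and 47.0% of one-mark H3K27ac peaks and on 87.8% and 41.4% of H3K18ac peaks, and H3K4me3 on 42.7% and 15.6%, and 42.6% and 13.4%.

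H3K27ac alone was found at 357 genes over whole genes and at 821 without the narrowest peaks, and H3K18ac alone at 414 without the narrowest peaks and 1069 at annotated starts. Of 17 gene lists, the number of genes with both marks stayed within 1.5 times in 15 to 16 under each window or width; neuronal genes moved from 4 to 2, 10 and 2, and liver, pancreas and muscle genes from 4 to 2 with 1 kb. Windows of 1 kb gave 9 and 8 CG dinucleotides at starts with H3K27ac or H3K18ac alone. Identifiers at least 2-fold higher in H3K27ac and H3K18ac were 31.9% and 27.2% with median scaling, 48.2% and 15.1% with a prior count of 0.5, 22.5% and 19% from 20 reads, and 18.1% and 2.65% with no filter. Reads placed peak by peak gave 10.9 H3K27ac and 68.3 H3K18ac CPM per kb in one-mark H3K18ac peaks. Densities from identifiers of 1 region could not be computed, since no peak of these marks stands in one. No paired analysis was possible because each mark has 1 library.

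One-mark peaks whose reads can be placed, mostly of the narrowest width, held a median of 12 H3K27ac or 10 H3K18ac reads. At this depth a missing partner peak does not show that the mark is absent. How the shares change with depth was not tested.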
